A study of Mus musculus with 12 samples.

Results

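In mouse embryonic fibroblasts treated for 24 h with inhibitors of the kinase mTOR, 128 genes had RNA levels that lay on one side of the solvent control with rapamycin and on the other side with both Torin1 and RapaLink-1. They were chosen among 11707 genes with a mean of at least 2 counts per 1000000 counted reads (CPM), so they made up 1.09% of them. The genes were selected on the mean CPM of each group, with each library scaled to its column total. A gene was taken when its log2 ratio to DMSO was at least 0.2 with rapamycin and at most -0.2 with both other compounds, or the exact reverse. This took 86 genes that were higher with rapamycin and lower with the other compounds, called rapamycin-high here (0.735% of the 11707), and 42 genes of the reverse pattern, called rapamycin-low (0.359%). These values chose the genes, so every ratio to DMSO below is a description with no test.

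The tested cultures received rapamycin at 20 ng/ml, Torin1 at 250 nM or RapaLink-1 at 10 nM, and the controls received DMSO, the solvent. All were mouse embryonic fibroblasts, which are connective tissue cells cultured from embryos. There were 12 libraries, 3 for each of the 4 groups, and the labels give neither a strain or genotype nor separate cultures. The p-values below therefore measure only the spread between these libraries, which may be technical. Doses differ between the compounds, so a comparison of compounds is one of these doses.

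mTOR is a kinase that works in a pair of complexes, mTORC1, which drives protein synthesis and growth, and mTORC2, which acts on AKT. Rapamycin binds the protein FKBP12 and with it blocks mTORC1, but leaves part of its output running and does not bind mTORC2 directly. Torin1 competes with ATP in the kinase itself and so acts on both complexes, while RapaLink-1 joins rapamycin by a linker to a kinase inhibitor. In fibroblasts, mTOR is known for control of translation, ribosome production and entry into the cell cycle.

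Total counts were 30495065 to 38809352 per library with rapamycin, 31328365 to 37762480 with Torin1, 30075870 to 36206209 with RapaLink-1 and 34696405 to 39423703 with DMSO. At these depths 2 CPM stood for 60.2 to 78.8 reads in a library, whose counting error alone was 12.9% at the lowest. Of 13 fibroblast markers, 11 reached 2 CPM, and their summed level was 19911 to 22289 CPM over the 12 libraries. No endothelial, epithelial, muscle or adipocyte marker reached 2 CPM, and of the leukocyte and the cartilage or bone lists Cd68 and Col2a1 alone did. In bulk RNA, fewer cells of a type and less RNA per cell cannot be told apart.

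Most genes that moved past the same limit with rapamycin moved the same way with the other compounds. Of the 11707 genes, 2717 (23.2%) were past 0.2 upward with all 3 compounds and 1648 (14.1%) past it downward with all 3. The rapamycin-high genes were 2.49% of the 3452 genes past the limit upward with rapamycin, and the rapamycin-low genes were 2.10% of the 1999 past it downward. Among the rapamycin-high genes the median log2 ratio to DMSO was 0.29 with rapamycin, -0.52 with Torin1 and -0.43 with RapaLink-1. Among the rapamycin-low genes these medians were -0.27, 0.40 and 0.45 in the same order, and over all 11707 genes they were 0.05, -0.01 and 0.03. The rapamycin ratio was the smallest of the 3 in 60 of the 86 rapamycin-high and 29 of the 42 rapamycin-low genes. With rapamycin the libraries lay apart from those of DMSO in 81 of 86 rapamycin-high and 36 of 42 rapamycin-low genes. With Torin1 they did so in 83 and 39 of them, and with RapaLink-1 in 81 and 42. All 3 compounds did so together in 77 and 33, a joint count that was not made over all genes. Among all 15917 genes tested, libraries stood apart from DMSO in 63.5% with rapamycin, 78.8% with Torin1 and 78% with RapaLink-1, and nothing is read from the counts of the chosen genes.

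**Figure D1:**
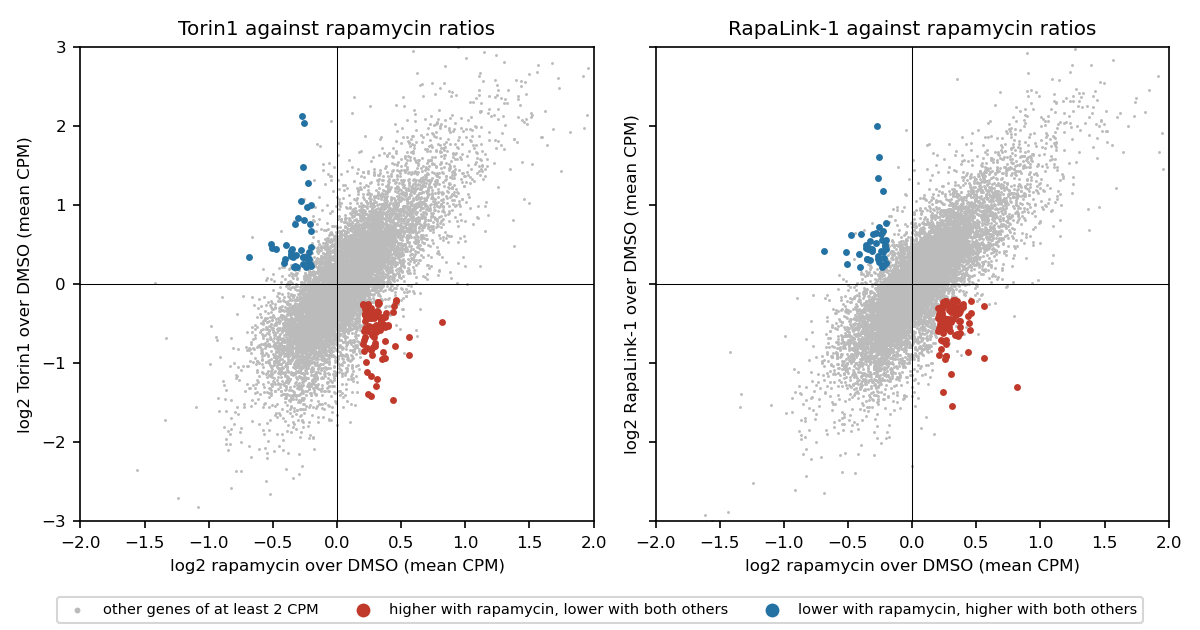
Each point is a gene with a mean of at least 2 CPM, by its log2 ratio of mean CPM to DMSO with rapamycin (horizontal) and with Torin1 or RapaLink-1 (vertical), and genes past the ends of the axes are not drawn. The 86 rapamycin-high genes (red) and the 42 rapamycin-low genes (blue) fill the corners that the choice fixed, while most other genes lie along the rising diagonal.

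Receptors, ligands and signalling proteins were one part of the rapamycin-high genes, with 15 members by a grouping made after the values were seen. Dkk2, which encodes a secreted modulator of Wnt signalling, had 76.7, 77.4 and 80.2 CPM with rapamycin, 32.7, 33.1 and 33.9 CPM with Torin1, 28.1, 28.1 and 27.2 CPM with RapaLink-1 and 54.3, 52.1 and 52.6 CPM with DMSO. The 4 groups did not overlap, and RapaLink-1 was the lowest. Its log2 ratios to DMSO were 0.56 with rapamycin, -0.67 with Torin1 and -0.93 with RapaLink-1. F2rl1, the protease-activated receptor PAR2, had 21.6, 20.6 and 22.2 CPM with rapamycin, 5.94, 5.35 and 5.93 CPM with Torin1, 9.34, 8.28 and 8.67 CPM with RapaLink-1 and 16.2, 16.7 and 14.8 CPM with DMSO. Here the groups again stood apart, but Torin1 was the lowest, at a log2 ratio of -1.47 against -0.86 with RapaLink-1. Ulbp1, a ligand of the immune receptor NKG2D, had 20.1, 19.5 and 19.7 CPM with rapamycin, 8.08, 7.09 and 8.87 CPM with Torin1, 11.1, 10.4 and 10.1 CPM with RapaLink-1 and 14.6, 15.8 and 15.5 CPM with DMSO. Its groups did not overlap either, and Torin1 was again the lowest. Pask, which encodes a kinase with a PAS sensor domain, had log2 ratios of 0.32 with rapamycin, -0.53 with Torin1 and -0.35 with RapaLink-1. For Syk, a tyrosine kinase of immune receptors, they were 0.29, -0.67 and -0.54. Adgra2, an adhesion receptor that takes part in Wnt signalling, was at 0.22, -0.38 and -0.46 in the same order, and the phosphodiesterase gene Pde3b at 0.32, -0.36 and -0.45. Adgra2, Pde3b and F2rl1 were the rapamycin-high members among 79 measured genes of G protein signalling, a list with no rapamycin-low member.

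Genes of cell division and DNA were the largest group of the rapamycin-high genes, with 16 members by the same kind of grouping. The share of this role among all genes was not taken, so nothing is read from the size. Only Stmn1, Hjurp, Fbxo5 and H1fx of the 16 passed under each scaling described below. The median log2 ratio of the 16 genes to DMSO was 0.26 with rapamycin, -0.73 with Torin1 and -0.55 with RapaLink-1. Hjurp encodes the chaperone that loads the centromeric histone CENP-A, and it had 247, 251 and 255 CPM with rapamycin, 132, 137 and 138 CPM with Torin1, 151, 149 and 152 CPM with RapaLink-1 and 195, 196 and 193 CPM with DMSO. No 2 groups overlapped, and RapaLink-1 lay between Torin1 and DMSO. Stmn1, which encodes the microtubule-destabilising protein stathmin, had 192, 189 and 188 CPM with rapamycin, 91.2, 89.7 and 87.4 CPM with Torin1, 97.1, 94.7 and 95.7 CPM with RapaLink-1 and 148, 147 and 147 CPM with DMSO. A processed pseudogene of Stmn1, Gm11223, was also rapamycin-high, and reads of the pair may be shared. Fbxo5, an inhibitor of the anaphase-promoting complex also known as EMI1, had 122.8, 117 and 116 CPM with rapamycin, 40.4, 38.3 and 40.0 CPM with Torin1, 42.2, 44.0 and 45.2 CPM with RapaLink-1 and 94.7, 99.2 and 94.9 CPM with DMSO. Its log2 ratio to DMSO was thus 0.30 with rapamycin, against -1.28 with Torin1 and -1.14 with RapaLink-1. Ccnd1, cyclin D1, had 291, 289.9 and 292 CPM with rapamycin, 151, 149 and 149.5 CPM with Torin1, 171, 166 and 164 CPM with RapaLink-1 and 252, 254 and 252 CPM with DMSO. Its rapamycin ratio of 0.20 lay just inside the limit and was 0.12 with TMM scaling, and 23.4% of its exonic bases lie antisense to LTO1. The near-identical mitotic kinesins Kifc1 and Kifc5b, which may share reads, were rapamycin-high together, at 0.28 and 0.23 with rapamycin.

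The other members of these complexes did not share the pattern, as a comparison chosen after the values were seen showed. Hjurp and Oip5, a subunit of the Mis18 complex that marks centromeres for CENP-A, were at 0.37 and 0.29 with rapamycin. Mis18a, another subunit of that complex, and Cenpa itself were at -0.03 and -0.01 with rapamycin and at -0.85 and -1.13 with Torin1. Both thus lay close to DMSO with rapamycin. Ccnd2 and Ccnd3, the other D-type cyclins, were at -0.31 and -0.15 with rapamycin. Cdc20 and Fzr1, the activators that Fbxo5 opposes, were at -0.25 and -0.09 with rapamycin. Both pairs lay below DMSO where Ccnd1 and Fbxo5 lay above it. Of 47 listed mitosis genes at 2 CPM or more, Nusap1, a spindle microtubule protein, was the rapamycin-high one, and of 42 DNA replication genes it was Gins4, a subunit of the replicative helicase. In edgeR's test, 2 of the 47 mitosis genes were called higher and 38 lower with rapamycin than with DMSO, where 27.5% of all genes tested were called higher and 32.2% lower. With Torin1 all 47 were called lower, as were all 47 with RapaLink-1, where 38.3% and 37.9% of all genes were.

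**Figure D2:**
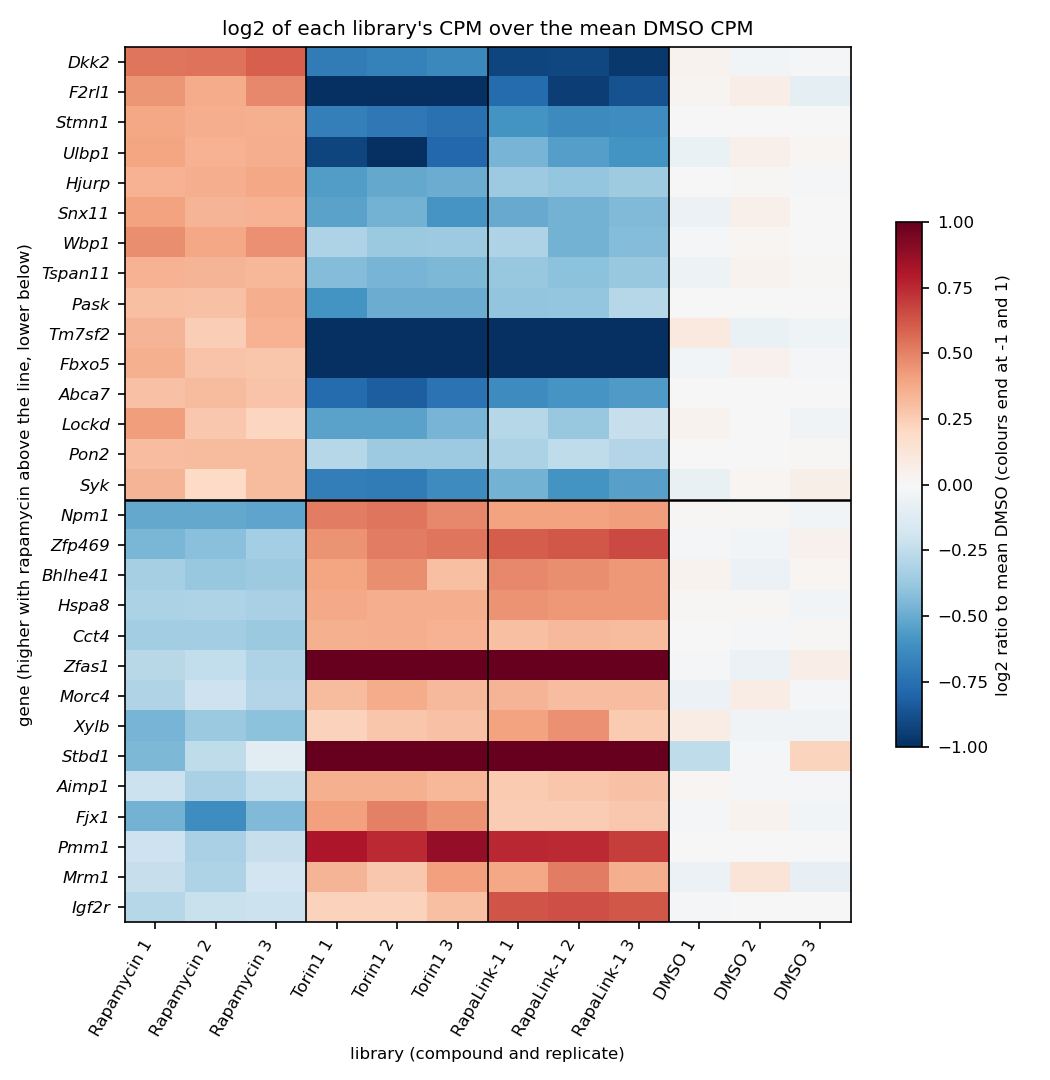
Rows are 15 rapamycin-high and 14 rapamycin-low genes from those whose smallest ratio was largest among those with at least 10 CPM and an established symbol, columns are the 12 libraries, and the colour is the log2 of a library's CPM over the mean DMSO CPM, with the scale ending at -1 and 1. The 3 libraries of a compound look alike in most rows, and with Torin1 and RapaLink-1 Zfas1 and Stbd1 stand past the upper end of the scale and Tm7sf2 and Fbxo5 past the lower end.

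Enzymes and transporters followed, with 11 rapamycin-high genes of metabolism, lipids and transport and 10 of glycans, secretion and membrane trafficking. Tm7sf2, a sterol reductase of cholesterol synthesis, had 23.4, 21.9 and 23.6 CPM with rapamycin, 8.20, 7.57 and 8.50 CPM with Torin1, 6.62, 6.41 and 6.10 CPM with RapaLink-1 and 19.8, 17.7 and 18.003 CPM with DMSO. Its ratio with RapaLink-1, -1.54, was the lowest of all 86 genes, and 15.3% of its exonic bases overlap Vps51. Of 24 measured genes of cholesterol synthesis and uptake, Tm7sf2 was the one chosen. In that list, 25 genes were tested in edgeR's fit, and 1 was called higher and 20 lower with rapamycin. With Torin1 0 were called higher and 25 lower, with the same counts for RapaLink-1. Of all genes tested, 27.5% were called higher and 32.2% lower with rapamycin, and 38.3% lower with Torin1 and 37.9% with RapaLink-1. Abca7, a lipid transporter, was at 0.30 with rapamycin, -0.78 with Torin1 and -0.59 with RapaLink-1, and Pon2, a lactonase of the paraoxonase family, was at 0.31, -0.34 and -0.29 in the same order. The solute carriers Slc25a29, Slc43a3 and Slc4a11 were 3 rapamycin-high genes of 158 measured. The glycan enzymes Chst7, Chpf and Fut10 were 3 of 73, with log2 ratios of 0.26, 0.23 and 0.23 with rapamycin and -0.91, -0.36 and -0.29 with RapaLink-1. Fbxo48, Fbxo5 and Rnf122 were 3 of 193 measured ubiquitin ligase genes. The lists of solute carriers, glycan enzymes and ubiquitin ligases and that of G protein signalling each held between 1.55% and 4.11% chosen genes, beside 1.09% of all genes. They are named because they hold at least 3 chosen genes, which at their sizes fixes a share above 1.09%. Nothing is read from these shares.

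Among the rapamycin-low genes were the nucleolar gene Npm1 and the chaperone genes Hspa8 and Cct4. Npm1, nucleophosmin, a histone chaperone of the nucleolus that takes part in ribosome assembly, had 1277, 1277 and 1261 CPM with rapamycin, 2596, 2632 and 2541 CPM with Torin1, 2411, 2405 and 2436 CPM with RapaLink-1 and 1839, 1831 and 1789.7 CPM with DMSO. All 4 groups stood apart, with log2 ratios of -0.52 with rapamycin, 0.51 with Torin1 and 0.41 with RapaLink-1. Hspa8, the constitutive HSP70 chaperone HSC70, had 1416, 1424 and 1406 CPM with rapamycin, 2289, 2270.2 and 2271 CPM with Torin1, 2405, 2378 and 2385 CPM with RapaLink-1 and 1779, 1778 and 1731 CPM with DMSO. Cct4, a subunit of the TCP1 ring chaperonin that folds actin and tubulin, had 370.0, 371 and 365 CPM with rapamycin, 605, 606 and 599 CPM with Torin1, 579.6, 591 and 587 CPM with RapaLink-1 and 473, 467 and 475 CPM with DMSO. In all 3 genes the rapamycin libraries lay below every DMSO library and the 6 others above. Near-identical copies were chosen together, Gm14681 and Gm6477 with Npm1, and Gm8355, Gm15459 and Gm26825 with Hspa8. Gm10110 was chosen with Pabpc4 in the same way, and the reads of such copies cannot be told apart. With each such group counted once, 84 rapamycin-high and 36 rapamycin-low genes remained.

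The families of these genes again split. The 7 other subunits of the TCP1 ring were at -0.54 to -0.33 with rapamycin, near Cct4 at -0.36. With Torin1 they were at -0.77 to 0.04 and with RapaLink-1 at -0.78 to 0.03, while Cct4 was at 0.35 and 0.31. Cct4 was thus the one subunit above DMSO by more than 0.2 with these compounds. Of the 11 other HSP70 genes, 8 lay below DMSO with every compound and 3 above it with every compound. Their rapamycin ratios spanned -0.64 to 0.31, their Torin1 ratios -1.58 to 0.33 and their RapaLink-1 ratios -1.35 to 0.52. The lowest with Torin1 was Hspa5, the chaperone of the endoplasmic reticulum, and Hspa2, Hspa12a and Hspa12b were the 3 above DMSO. Npm3, a relative of Npm1, was at -0.49 with rapamycin, -0.65 with Torin1 and -0.64 with RapaLink-1. Npm3 thus lay below DMSO with each compound. Aimp1 and Aimp2 both belong to the scaffold of the complex of aminoacyl-tRNA synthetases. Aimp1 was at -0.26 with rapamycin and 0.35 with Torin1, and Aimp2 at -0.32 with rapamycin and -0.70 with Torin1. Of 50 ribosome biogenesis genes, Npm1 was the one rapamycin-low gene. edgeR called 48 of the 50 lower with rapamycin, 42 lower and 4 higher with Torin1, and 45 lower and 3 higher with RapaLink-1. Of all genes tested, 32.2% were called lower with rapamycin. With Torin1 38.3% were called lower and 39.8% higher, and with RapaLink-1 37.9% and 38.7%. Pabpc4, a cytoplasmic poly(A)-binding protein, was at -0.22 with rapamycin, whereas Pabpc1 was at 0.19, and with Torin1 they were at 0.32 and 0.65.

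**Figure D3:**
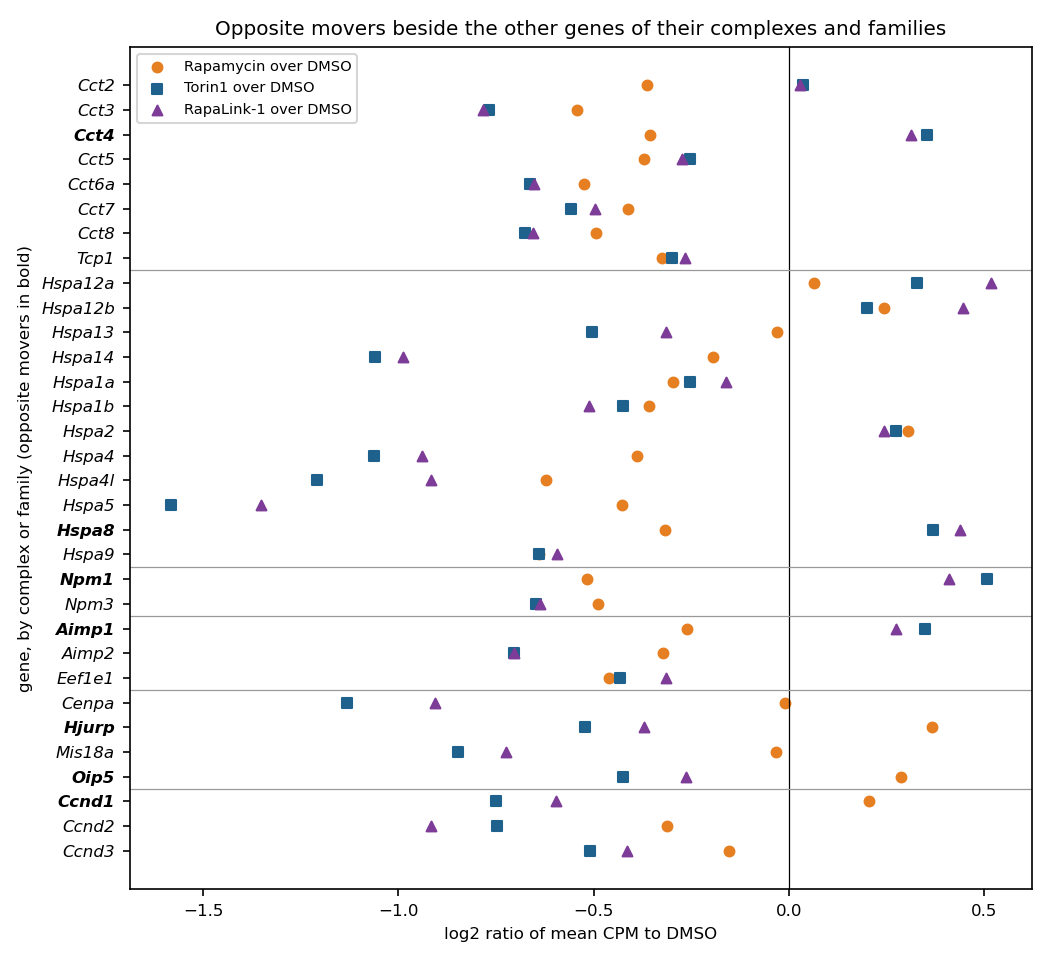
Log2 ratios of mean CPM to DMSO with rapamycin (circles), Torin1 (squares) and RapaLink-1 (triangles) for 8 TCP1 ring genes, 12 HSP70 genes, 2 nucleophosmin genes, 3 synthetase complex genes, 4 genes of CENP-A deposition and 3 D-type cyclins, with the chosen genes in bold. Cct4 lies right of zero with Torin1 and RapaLink-1, at 0.35 and 0.31, while most of its partners lie left of it, and Hjurp and Oip5 lie right of zero with rapamycin.

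Noncoding hosts of small nucleolar RNAs, which carry those RNAs in their introns, included Zfas1, the rapamycin-low gene with the largest ratios with Torin1 and with RapaLink-1. Zfas1 had 49.5, 50.7 and 48.4 CPM with rapamycin, 270.2, 259 and 259 CPM with Torin1, 247, 232 and 240.2 CPM with RapaLink-1 and 59.5, 57.7 and 62.9 CPM with DMSO. The rapamycin libraries lay below all DMSO libraries, and the log2 ratio was -0.28 with rapamycin, 2.13 with Torin1 and 2.00 with RapaLink-1. Snhg12 was at -0.22, 0.41 and 0.33 in the same order. Both are uncertain, since 18.5% and 20.5% of their exonic bases overlap other annotated genes. They were 2 of 14 measured host RNAs. edgeR called 4 of 16 hosts higher and 9 lower with rapamycin, against 12 higher and 3 lower with Torin1 and also with RapaLink-1. Of all genes tested, 27.5% were called higher and 32.2% lower with rapamycin. With Torin1 these shares were 39.8% and 38.3%, and with RapaLink-1 38.7% and 37.9%.

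Metabolic and signalling genes made up a further part of the rapamycin-low genes, with 8 and 7 members by the same grouping. Pmm1, a phosphomannomutase, had 23.5, 21.6 and 23.1 CPM with rapamycin, 47.6, 45.5 and 49.8 CPM with Torin1, 45.7, 45.4 and 43.7 CPM with RapaLink-1 and 27.1, 27.3 and 27.0 CPM with DMSO. Stbd1, a glycogen-binding protein, had 5.33, 6.10 and 6.75 CPM with rapamycin, 19.8, 19.7 and 21.2 CPM with Torin1, 19.1, 18.9 and 17.4 CPM with RapaLink-1 and 6.09, 7.23 and 8.50 CPM with DMSO. Its rapamycin and DMSO libraries overlapped, while the 6 others lay far above. Xylb, xylulokinase, was at -0.41 with rapamycin, 0.27 with Torin1 and 0.38 with RapaLink-1. Bhlhe41, a repressor that binds E-box sequences and belongs to the circadian clock, had 10.0, 9.67 and 9.82 CPM with rapamycin, 16.6, 17.4 and 15.5 CPM with Torin1, 17.6, 17.4 and 17.0 CPM with RapaLink-1 and 12.9, 12.1 and 12.8 CPM with DMSO. It is uncertain, with 19.05% of its exonic bases antisense to another gene. Igf2r, the mannose 6-phosphate receptor that carries lysosomal enzymes and takes up IGF2, had 204, 212 and 215 CPM with rapamycin, 292, 291 and 306 CPM with Torin1, 385, 387 and 382 CPM with RapaLink-1 and 246, 249 and 249.7 CPM with DMSO. The 4 groups of Igf2r did not overlap, and RapaLink-1 was the highest.

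Promoters were set side by side to see which short sequences the genes share. RefSeq windows of GRCm38.p6, the build of the count tables, run from 250 bases before to 50 after a start and were on hand for 52 of 86 rapamycin-high, 24 of 42 rapamycin-low and 8997 of all 11707 genes. Both strands were read, and a gene counted once when any of its windows held the letters. CACGTG, the E-box core, was in 0 of 52 rapamycin-high and 5 of 24 rapamycin-low genes (20.8%), beside 12.2% of all genes. These stretches of rapamycin-low genes hold it in capitals, and Bhlhe41 is shown because its own product binds such boxes:
Bhlhe41 (chr6:145865550-145865585, minus strand): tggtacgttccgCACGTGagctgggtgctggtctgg
Gucy1a2 (chr9:3532227-3532262, plus strand): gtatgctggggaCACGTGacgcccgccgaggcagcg
Igf2r (chr17:12769731-12769766, minus strand): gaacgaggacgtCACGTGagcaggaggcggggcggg

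TATAAA, the core of a TATA box, was counted on either strand and at any place in the window, so not every hit is such a box. It was in 4 of 52 rapamycin-high (7.69%) and 6 of 24 rapamycin-low genes (25%), beside 8.11% of all genes. The stretches of Dkk2, described first above, and of Pabpc4 show it in capitals, 32 and 155 bases before the start:
Dkk2 (chr3:132085248-132085283, plus strand): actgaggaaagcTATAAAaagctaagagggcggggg
Pabpc4 (chr4:123282744-123282779, plus strand): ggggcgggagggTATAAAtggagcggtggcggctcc

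An oligopyrimidine start, a C within 5 bases of the annotated start followed by at least 4 C or T, is the mark of messages whose translation mTORC1 controls. It was in 6 of 52 rapamycin-high (11.5%) and 5 of 24 rapamycin-low genes (20.8%), beside 24.0% of all genes. The shares of both groups thus lay below that of all genes. Aimp1 has another annotated start without such a run. The Aimp1 start shown here and that of Snhg12 carry the same run, in capitals, within 30 bases around the start:
Aimp1 (chr3:132683865-132683894, minus strand): cagcctcctgggtCCTTTCTCgctgccggg
Snhg12 (chr4:132308663-132308692, plus strand): ggccgttctcagtCCTTTCTCgcttcatcc

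TTTGAA, a core found at genes of the G2 and M phases of the cell cycle and added after the values were seen, was in 11 of 52 rapamycin-high genes (21.2%) and 3 of 24 rapamycin-low genes (12.5%), beside 14.0% of all genes. Hjurp, Oip5, Fbxo5 and the near-identical Kifc1 and Kifc5b, all of the cell division group, were among the 11. The others were Dnaaf3, Fbxo48, Lockd, Mycn, Ndufa1 and Ulbp1. Nusap1, Neil3, Sapcd2 and Recql, also rapamycin-high, had no TTTGAA in their windows. The core is in capitals at 2 starts, as read on the other strand:
Fbxo5 (chr10:5805451-5805480, minus strand): tctgatttgggcaccaaaTTCAAAgatttt
Kifc1 (chr17:33890619-33890648, minus strand): tgcgcggaggttgaaaTTCAAAagtggcgg
CCAAT was in 57.7% of rapamycin-high, 45.8% of rapamycin-low and 43.6% of all genes. These counts describe letters in a window and were not tested.

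The choice of genes set no limit on the difference between RapaLink-1 and Torin1. It did use both means, each past 0.2 on the same side of DMSO, so this contrast is not free of the choice, and its calls are those of single genes in a fit over all genes. In edgeR's quasi-likelihood test over 15917 genes, with all 12 libraries and Benjamini-Hochberg adjustment, 55 of the 128 genes differed at an adjusted p under 0.05, 27 of them higher and 28 lower with RapaLink-1. Over all genes 33.2% were called, 16.7% higher and 16.4% lower. Of the 86 rapamycin-high genes 23 were higher and 13 lower, and of the 42 rapamycin-low genes 4 were higher and 15 lower. Torin1 lay farther from DMSO than RapaLink-1 in 62 of the 86 rapamycin-high and 22 of the 42 rapamycin-low genes. This count was not made over all genes, so it is not read as a trait of the chosen ones. Of the 16 genes of cell division and DNA, 12 were called and 11 of these were higher with RapaLink-1, while in the mitosis list 44 of 47 genes were called higher and 0 lower. All 5 called among the 8 rapamycin-low metabolic genes were lower with RapaLink-1.

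The largest differences of this contrast among genes of at least 10 CPM fell in both groups. F2rl1 had 9.34, 8.28 and 8.67 CPM with RapaLink-1, against 5.94, 5.35 and 5.93 CPM with Torin1, and was higher by a log2 fold change of 0.57 ± 0.08 (edgeR adjusted p = 1.36e-09). H1fx, a linker histone, had 37.4, 36.7 and 36.3 CPM with RapaLink-1, against 21.2, 24.9 and 25.8 CPM with Torin1, a log2 fold change of 0.57 ± 0.10 (edgeR adjusted p = 0.00121), and 19.5% of its exonic bases overlap another gene. Igf2r was higher with RapaLink-1 by 0.34 ± 0.02 (edgeR adjusted p = 1.18e-40), from libraries that did not overlap. Sapcd2, a regulator of spindle orientation, the DNA glycosylase gene Neil3 and Ulbp1 were higher by 0.37 ± 0.06, 0.36 ± 0.06 and 0.35 ± 0.07. In the other direction, Maoa, the mitochondrial monoamine oxidase A, had 216, 216 and 219 CPM with RapaLink-1, against 293, 298 and 292 CPM with Torin1 and 149, 143 and 150.4 CPM with DMSO. Its log2 fold change was -0.48 ± 0.02 (edgeR adjusted p = 4.56e-55). Tm7sf2 and Dkk2 were at -0.38 ± 0.08 and -0.30 ± 0.04. The secreted superoxide dismutase gene Sod3 was at -0.26 ± 0.06, Fjx1, whose fly relative four-jointed is a Golgi kinase, at -0.24 ± 0.06 and the stromal glycoprotein gene Cd248 at -0.22 ± 0.03. Each of these 12 genes was called in all 11 alternatives run for this contrast, and the highest adjusted p among those was 0.0358, for Sod3.

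**Figure D4:**
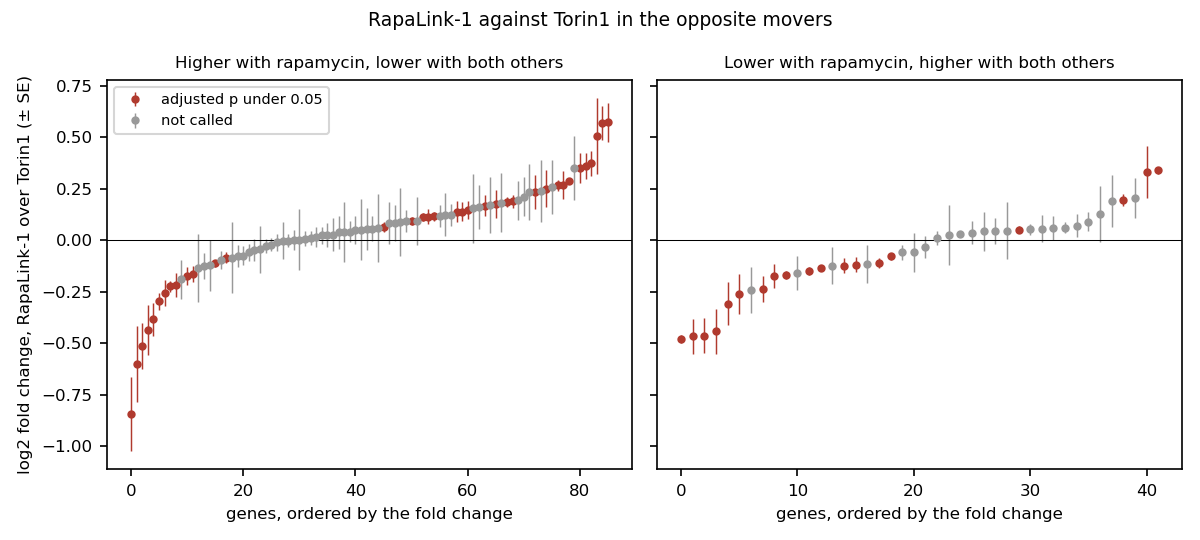
Each point is one of the 86 rapamycin-high genes (left) or 42 rapamycin-low genes (right), ordered by its log2 fold change of RapaLink-1 over Torin1 from edgeR, with bars of 1 standard error and genes of an adjusted p under 0.05 in red. Red points lie on both sides of zero, 23 above and 13 below on the left and 4 above and 15 below on the right.

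edgeR's calls in the contrasts that chose the genes are given as a description. With rapamycin, 71 of 86 rapamycin-high genes were called higher and 41 of 42 rapamycin-low genes lower than DMSO, where 27.5% and 32.2% of all genes were and 59.7% were called either way. With Torin1, 86 of 86 were called lower and 38 of 42 higher, where 38.3% and 39.8% of all genes were, and with RapaLink-1 85 of 86 lower and 39 of 42 higher, where 37.9% and 38.7% were. All 128 were called between Torin1 and rapamycin and between RapaLink-1 and rapamycin, where 67.5% and 65% of all genes were. Against rapamycin, 34.2% of all genes were called higher and 33.2% lower with Torin1, and 32% higher and 33% lower with RapaLink-1.

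Many of the genes lay near the limit, and the set depends on how libraries are scaled. Just inside it were Ccnd1, Sertad1 and Atg9a, with smallest ratios of 0.204, 0.201 and 0.201, and Utp14a, Maoa and Dhtkd1, with 0.204, 0.204 and 0.2002. Just outside were Ephb3, Rtn4ip1 and Twsg1, with 0.1996, 0.199 and 0.196, and Ets2, Trip10 and Pdk1, with 0.196, 0.196 and 0.195. With TMM scaling the choice gave 55 rapamycin-high genes, 45 of them shared with the 86, and 72 rapamycin-low genes, 33 of them shared with the 42. With upper-quartile scaling it gave 60 and 79, with 60 and 42 shared. In all, 31 of 86 and 33 of 42 genes passed under each of the 3 other scalings. The 3 ratios of all 128 genes kept their signs there, but this was fixed beforehand. Scaling moved the ratios by less than 0.2, the least size that the choice allowed, so nothing is read from the signs. Of the 15 rapamycin-high and 14 rapamycin-low genes shown library by library, all but Syk, Aimp1 and Fjx1 passed under each scaling, and of the 16 genes of cell division and DNA only Stmn1, Hjurp, Fbxo5 and H1fx did.

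The direction was also read in libraries that had no part in the choice. These may be technical repeats of the same cultures, so they show only how far the libraries repeat each other. The shares below were not taken over all genes. Genes were chosen again without the libraries of 1 replicate number in all 4 groups, which took 92, 94 and 94 rapamycin-high and 48, 52 and 50 rapamycin-low genes. In the libraries left out, all 3 ratios had the same signs in 90.4% to 94.7% of the rapamycin-high and 78.8% to 85.4% of the rapamycin-low genes. All 3 were past 0.2 in 51.1% to 54.3% and 42.3% to 46.0% of them. Levels were low in part of the set, with 33 of 86 rapamycin-high and 17 of 42 rapamycin-low genes under 10 CPM. Both shares were larger than that of all genes, 19.8%. The median level was 17.3 CPM for rapamycin-high and 13.2 CPM for rapamycin-low genes, against 37.1 CPM for all genes. The chosen genes thus lay lower than all genes. Exonic overlap with another gene or a near-identical copy made 22 rapamycin-high and 18 rapamycin-low genes uncertain.

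**Figure D5:**
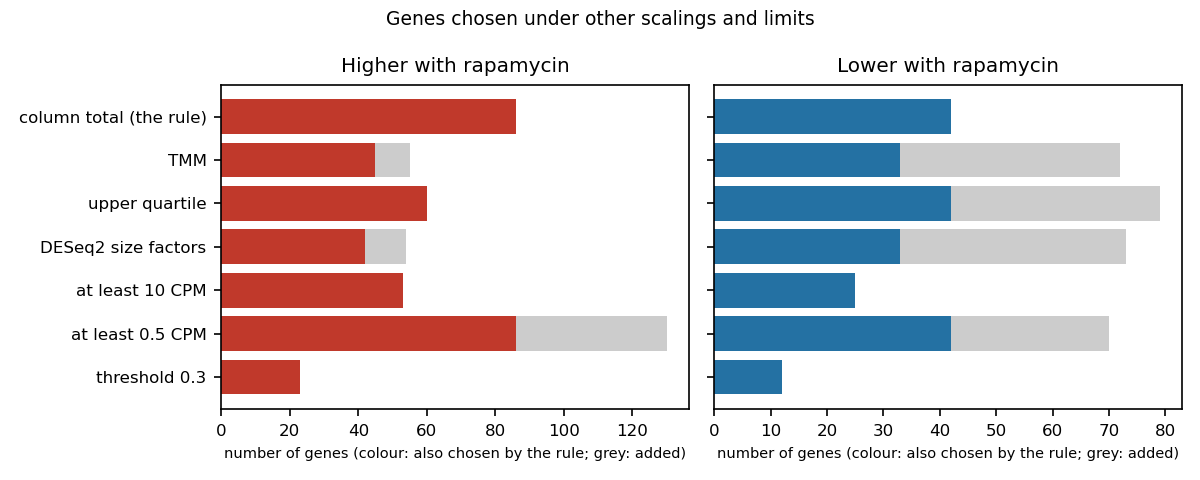
Bars give the number of genes chosen under other scalings, CPM minimums and limits, with the genes shared with the 86 rapamycin-high (red) or 42 rapamycin-low genes (blue) in colour and added genes in grey. TMM and DESeq2 size factors shorten the left bars to 55 and 54 genes and lengthen the right ones to 72 and 73.

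The chosen genes were spread over roles, and most fell in no list. Of 66 lists, 30 held at least 1 of the genes and 4 held at least 3, and 87 of the 128 genes were in none. The snoRNA hosts had the highest share, 14.3%, from 2 of 14 genes. Among lists with no chosen gene were the 82 cytosolic ribosomal proteins, the 19 aminoacyl-tRNA synthetases and the 49 measured components of the mTOR pathway. By biotype 110 of the 128 were protein coding and 8 were pseudogenes, where 213 of all 11707 genes were pseudogenes.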

How the data were processed

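Each library had 1 table of whole read counts by gene, which featureCounts wrote for the authors according to the file headers. The submitters' processing notes name Trimmomatic 0.36, STAR 2.5.2b, Subread 1.5.2, DESeq2 and GRCm38. Strand setting and multiply matching reads: not given in the sources used here. Overlapping genes (at least 10% of exonic bases) and near-identical copies (at least 95% identity over 50% of a transcript, BLAST+ 2.17.0) are therefore named as uncertain. Symbols came from GENCODE M21.

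Tests used edgeR 4.0.16 in R 4.3.3 with filterByExpr, TMM factors and a robust quasi-likelihood fit of all 12 libraries with the group as its term. P-values were adjusted by Benjamini-Hochberg over 15917 genes, all 128 among them. The fit was tested on simulated data. DESeq2 1.42.0, other scalings, no filter, a replicate term and left-out libraries were alternatives.

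The members and lists were chosen with earlier results of these data known. By rule, the text names up to 15 genes of each direction by largest smallest ratio at 10 CPM or more, members of lists with at least 3, the 6 largest RapaLink-1 against Torin1 calls each way, 3 genes on either side of the limit and the 3 with most CPM. Groups by role, families and other named genes were picked after their values were seen. A few genes are not reported here. Replicates differed by more than sampling noise, with a chi-square per degree of freedom of 1.33 to 1.99.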

Additional observations from a re-analysis of the deposited data

How the results depend on the processing

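The number of rapamycin-high genes, 86, was 55 with TMM scaling, 54 with DESeq2 size factors, 375, 23 and 1 with limits of 0.1, 0.3 and 0.5, and 130 and 53 with minimums of 0.5 and 10 CPM. The number of rapamycin-low genes, 42, was 72 with TMM, 79 with upper-quartile scaling, 73 with DESeq2 size factors, 170, 12 and 0 with limits of 0.1, 0.3 and 0.5, and 70 and 25 with minimums of 0.5 and 10 CPM. Scaling moved the median ratio of all genes with rapamycin from 0.046 by totals to -0.038 by TMM. Leaving out 1 library gave 85 to 92 rapamycin-high and 39 to 48 rapamycin-low genes, and leaving out 1 replicate number in all 4 groups gave 92 to 94 and 48 to 52. In all, 29 of 86 and 21 of 42 passed under every scaling and every left-out library. Calls among the 128 genes for RapaLink-1 against Torin1 were 55, 45 to 58 under other tools, scalings and filters and 48 to 55 without 1 library. Those for rapamycin against DMSO were 112, 86 to 112 under other settings and 95 to 104 without 1 library. Calls in the other 4 contrasts stayed between 114 and 128. With the number of the title as a replicate block, 57 genes were called for RapaLink-1 against Torin1 and 112 for rapamycin against DMSO. Same-numbered libraries did not deviate together over all genes, with correlations of -0.039 to 0.059. Such values cannot exclude a shared culture or day that moved few genes, and the labels do not say. The block moved no count by over 1.5 times. Depth limits the genes near 2 CPM, where the counting error of a library approaches the limit of the choice.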
